A study of Mus musculus with 23 samples.

Results

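Sox2, Nanog, Utf1 and Pim2 are 4 of the 8683 genes measured here during retinoic acid treatment and drug selection of A404, a line cloned from mouse P19 embryonal carcinoma. They were chosen by their annotation to pluripotency and by these same measured ratios, which were lower after retinoic acid, so their own changes are given as a description and carry no test. The array held 1 probe for each of them. The groups were undifferentiated A404 cells (Control, 6 arrays), A404 cells after 48 h in 1 µmol/L all-trans retinoic acid (RA48, 5 arrays), after 96 h in it (RA96, 6 arrays), and after 96 h of retinoic acid followed by 48 h of puromycin (Puromycin, 6 arrays). All groups are 1 clone, which as background carries a puromycin resistance gene driven by the Acta2 promoter, so puromycin leaves cells that use this promoter. Control plates were collected near confluence and the RA48 and RA96 plates began at lower density, so density and treatment cannot be told apart. Each array set red-labelled RNA of 5 to 6 plates against a green-labelled pool of RNA from day 17.5 whole embryos, and no dye-swapped array was among them. The labels do not say whether replicates were separate cultures, so the spread given here may be technical.

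As background, pluripotent cells hold their state through a small circuit of transcription factors that occupy each other's regulatory DNA and are shut off when cells differentiate. Sox2 is a high-mobility-group factor that binds DNA next to Oct4 (the product of Pou5f1), and it is used again in neural progenitors. Nanog is a homeodomain factor that stabilises the circuit, Utf1 is a chromatin-associated protein of undifferentiated cells whose gene is a known target of Sox2 with Oct4 in mouse, and Pim2 is a serine/threonine kinase of growth and survival signalling. Retinoic acid, which acts through nuclear receptors, drives P19 cells out of the undifferentiated state. Pou5f1 was not analysed here.

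The 250 bases before each gene's start are shown because the 4 genes were lower in the same cells and because Oct4 and Sox2 are known to bind paired elements. The sequences are those of RefSeq on build GRCm38.p6, 5′ to 3′, and capitals mark matches on either strand to an octamer core (ATGCAAA), the full octamer (ATGCAAAT, which contains the core), a Sox element (CATTGT), or the 2 joined, with a Sox element, 1 further base and an octamer core in that order.
Sox2, chr3:34649745-34649994, plus strand: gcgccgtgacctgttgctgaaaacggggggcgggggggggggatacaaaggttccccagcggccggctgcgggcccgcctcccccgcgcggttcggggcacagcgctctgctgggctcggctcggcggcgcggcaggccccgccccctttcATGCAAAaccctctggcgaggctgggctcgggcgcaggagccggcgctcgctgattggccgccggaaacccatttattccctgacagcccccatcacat
Nanog, chr6:122707239-122707488, plus strand: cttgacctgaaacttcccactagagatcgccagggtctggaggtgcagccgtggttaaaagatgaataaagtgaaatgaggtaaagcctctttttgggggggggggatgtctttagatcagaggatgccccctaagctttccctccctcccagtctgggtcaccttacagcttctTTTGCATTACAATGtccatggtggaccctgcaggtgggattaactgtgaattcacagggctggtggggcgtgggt
Utf1, chr7:139943606-139943855, plus strand: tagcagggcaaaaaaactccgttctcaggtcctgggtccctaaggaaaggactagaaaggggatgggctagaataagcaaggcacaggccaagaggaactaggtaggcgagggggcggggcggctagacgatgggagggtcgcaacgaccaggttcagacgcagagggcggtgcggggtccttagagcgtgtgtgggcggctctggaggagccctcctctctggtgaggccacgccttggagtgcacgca
Pim2, chrX:7878056-7878305, plus strand: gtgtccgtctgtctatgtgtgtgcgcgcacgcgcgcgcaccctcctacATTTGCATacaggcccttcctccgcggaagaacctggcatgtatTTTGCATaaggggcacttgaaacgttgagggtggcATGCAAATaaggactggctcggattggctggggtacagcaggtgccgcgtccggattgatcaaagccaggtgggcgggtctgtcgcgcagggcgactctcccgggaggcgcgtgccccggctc
The Nanog window held the joined element, written TTTGCATTACAATG on the plus strand, 75 to 62 bases before the start. Of 32851 windows of this length 2 (0.00609%) held it, and both belong to Nanog, whose 2 windows overlap. The Pim2 window held 3 octamer cores, of which 2 were full octamers, and the Sox2 window held 1 core, 99 to 93 bases before the start. A core was present in 4.12% of all windows, a full octamer in 1.6% and a Sox element in 10.7%. The Utf1 window held no match. These are matches of letters in a short window and say nothing of binding.

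Values are log2 ratios of cell RNA over embryo RNA. The deposited values carry no stated base and were read as log10, so every fold below rests on that reading. Array medians lay between -0.071 and 0.026. In every group the arrays divided into 2 sets without a label, with 11 arrays in the first (Control, RA48 and Puromycin replicates 1 to 3, and RA96 replicates 1 and 3) and 12 in the second. The main axis of a principal component analysis, on which the 2 sets have opposite signs, carried 48.9% of the variance within groups. Arrays of 1 set also differed along this axis, and the share of the division alone was not computed. The SD over the rows of an array was 0.92 to 1.1 in the first set and 0.79 to 0.97 in the second, and values are therefore given for each set too. The ratio depends on the embryo RNA as well, so levels are compared for 1 gene across groups and never between genes. Loss of the RNA from every cell and fewer cells that carry it cannot be told apart in these bulk samples. Acta2, the smooth muscle alpha-actin gene, had a mean of -4.90 ± 0.65 (SD) in Control, then -0.34 ± 0.14 in RA48, 1.87 ± 0.13 in RA96 and 2.40 ± 0.26 in Puromycin.

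Sox2 was lower at each step of the protocol. In Control the lowest log2 ratio was 4.12, the median 4.41 and the highest 8.18. The 5 RA48 arrays had 2.83, 3.02, 2.70, 2.47 and 3.31. RA96 arrays ran between 0.09 and 1.19 with a median of 0.64, and Puromycin arrays between -1.18 and 0.10 with a median of -0.62. Neighbouring groups did not overlap as far as RA96, and Puromycin overlapped RA96 by 1 array on each side (0.10 in Puromycin replicate 4 and 0.09 in RA96 replicate 1). These 2 arrays belong to different sets, and within each set Puromycin lay wholly below RA96. The RA48 mean was 2.87 ± 0.32 (SD, n = 5) and the Control mean 5.09 ± 1.56 (n = 6), a log2 difference of -2.23 ± 0.65 (SE). RA96 (0.63 ± 0.52, n = 6) differed from RA48 by as much again, -2.23 ± 0.26. Puromycin (-0.60 ± 0.55, n = 6) differed from RA96 by -1.24 ± 0.31. The whole distance, Puromycin against Control, was -5.70 ± 0.68, or 51.9-fold lower, the lowest change of the 8683 genes when all arrays were used. That place depended on 1 Control array, described next, and on the array set.

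A single array moved the size of the Sox2 difference. Control replicate 5 had 8.18, the highest value of any row on any of the 23 arrays, whereas the other 5 Control arrays ran between 4.12 and 5.22. Without it the Control mean was 4.48 ± 0.43 (SD, n = 5), the RA48 difference was -1.61 (3.05-fold lower, against 4.68-fold with it) and the Puromycin difference was -5.08 (33.8-fold lower). Trh, the thyrotropin-releasing hormone gene, was then lower than Sox2 in Puromycin against Control, at -5.60, and it was so in the first array set too, at -6.45. On that array the other members were unremarkable, with 0.36 for Nanog, 3.06 for Utf1 and 4.22 for Pim2. Prex2, an activator of Rac, had 5.89 on the same array and 3.27 to 3.64 on the other Control arrays. Of 17863 rows, 3, Sox2 among them, deviated there at least as far as Sox2 did. In the first set, which does not hold this array, the RA48 difference was -1.42 and the Puromycin difference -5.36. In the second set they were -3.03 and -6.04, and -1.90 and -4.91 with Control replicate 5 left out. Both of these second-set Puromycin differences were the lowest of all genes.

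Nanog had the smallest difference from Control of the 4 genes, and its arrays divided by set in every group. In Control the lowest log2 ratio was 0.36, the median 0.65 and the highest 1.27. The RA48 arrays had 0.33, 0.26, 0.23, -0.36 and -0.53. RA96 arrays ran between -0.69 and -0.20 (median -0.52) and Puromycin arrays between -0.60 and -0.21 (median -0.49). RA48 lay below Control on every array, but only by 0.03 at the nearest pair, RA96 overlapped RA48, and Puromycin overlapped RA96. The mean was -0.02 ± 0.40 (SD, n = 5) in RA48 and 0.70 ± 0.37 (n = 6) in Control, a log2 difference of -0.71 ± 0.23 (SE) or 1.64-fold lower. In RA96 the mean was -0.46 ± 0.19 and in Puromycin -0.45 ± 0.16 (n = 6 each), and each differed from Control by -1.15. First-set arrays stood above second-set arrays by 0.61 in Control, 0.72 in RA48, 0.34 in RA96 and 0.26 in Puromycin. The 3 high RA48 arrays were those of the first set and the 2 low ones those of the second. Between RA96 and RA48 the log2 difference was -0.44 ± 0.19, -0.50 within the first set and -0.12 within the second, where the arrays overlapped. Taking the set into account as well as the group reduced the residual SD of Nanog to 0.14, against 0.29 with the group alone.

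Utf1 was already near its final level at 48 h. The lowest Control array had 2.82, the median was 3.22 and the highest 3.71. In RA48 the arrays had -0.09, -0.14, -0.28, -0.40 and -0.29, so the highest RA48 array lay 2.91 below the lowest Control array. RA96 ran between -0.70 and -0.59 (median -0.63) and Puromycin between -0.77 and -0.43 (median -0.58). RA96 lay below RA48 on every array, by 0.19 at the nearest pair, and Puromycin overlapped RA96. The mean was -0.24 ± 0.13 (SD, n = 5) in RA48 and 3.25 ± 0.38 (n = 6) in Control, a log2 difference of -3.49 ± 0.16 (SE) or 11.2-fold lower. RA96 (-0.64 ± 0.04, n = 6) differed from RA48 by -0.40 ± 0.06, and Puromycin (-0.57 ± 0.12, n = 6) from RA96 by 0.06 ± 0.05. Puromycin against Control gave -3.82 ± 0.16 (14.1-fold lower), with -4.22 in the first set and -3.43 in the second. The sets stood apart in Control, by 0.65, and hardly in RA96, where they differed by -0.06.

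Pim2 had the most uniform Control values and the largest difference at 48 h. Control arrays ran between 3.99 and 4.30 with a median of 4.21. The RA48 arrays had -0.16, -0.21, -0.15, -0.14 and -0.07. RA96 arrays ran between -0.78 and -0.09 (median -0.40), and Puromycin arrays between -0.86 and -0.19 (median -0.52). All RA48 arrays lay at least 4.06 below all Control arrays, while RA96 overlapped RA48 and Puromycin overlapped RA96. The mean was -0.15 ± 0.05 (SD, n = 5) in RA48 and 4.18 ± 0.11 (n = 6) in Control, a log2 difference of -4.32 ± 0.05 (SE), with 5% of the Control ratio left and the lowest of all 8683 genes. RA96 differed from RA48 by -0.26 ± 0.11 and Puromycin from RA96 by -0.11 ± 0.17. The sets lay within 0.14 of each other in Control and RA48 and further apart later. First-set arrays were below second-set arrays by 0.44 in RA96 and 0.60 in Puromycin (first minus second, -0.44 and -0.60), so that RA96 against RA48 gave -0.53 in the first set and -0.15 in the second. Puromycin against Control gave -4.70 ± 0.14, 26-fold lower, with -5.07 and -4.33 in the first and second set.

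**Figure D1:**
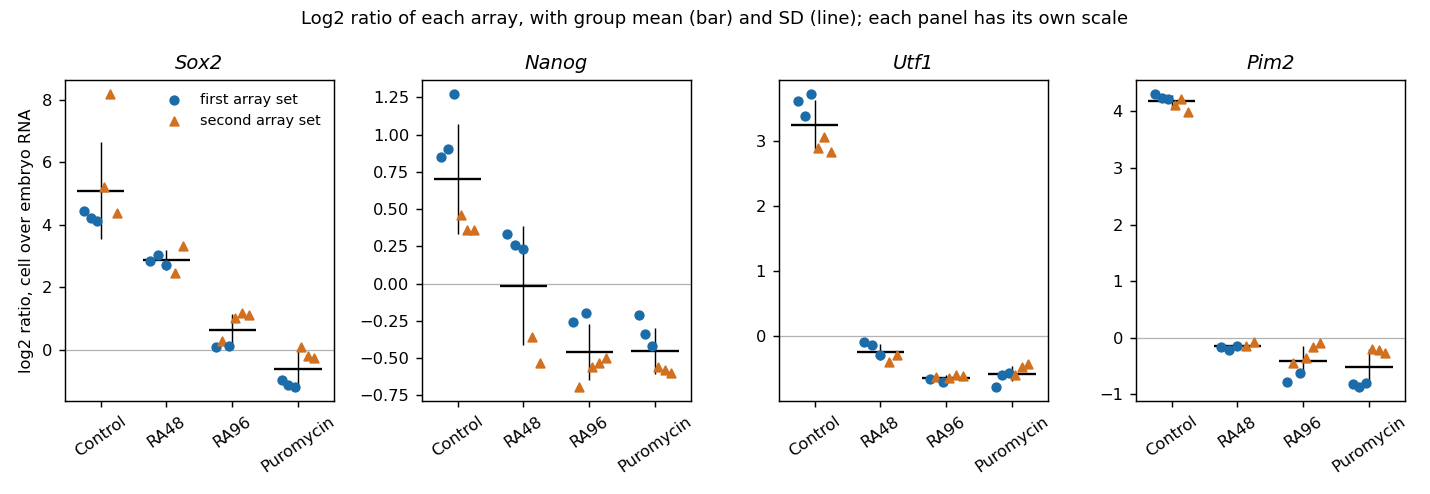
The log2 ratio of cell over embryo RNA (vertical axis, 1 scale per gene) is plotted for every array by group, with blue circles for the first and orange triangles for the second array set, horizontal bars for group means and vertical lines for SD. Utf1 and Pim2 are near their final level at RA48, Sox2 descends through all groups with 1 Control array at 8.18, and Nanog separates by array set within every group.

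The speed of loss differed among the genes as measured by the share of the log2 distance between Puromycin and Control that had been covered at each earlier time. This share scales each gene to its own end point, so the order of Sox2 and Nanog depends on the measure. In RA48 21.3% of the Control ratio was left for Sox2 and 60.9% for Nanog, with 8.93% for Utf1 and 5% for Pim2. At 48 h Pim2 had covered 92.0 ± 2.66% (SE) and Utf1 91.2 ± 1.89%. Nanog had covered 62.1 ± 16.6%, and Sox2 39.1 ± 7.42%. At 96 h the shares were 97.6 ± 3.6% for Pim2, 102 ± 1.33% for Utf1, 100 ± 8.68% for Nanog and 78.3 ± 5.43% for Sox2. Of the 4 genes, only Sox2 had a further difference between Puromycin and RA96 (-1.24) of more than 2 SE. Within the first and second set the 48 h share was 87.2% and 97.4% for Pim2, 88.7% and 95.4% for Utf1, 55.3% and 86.2% for Nanog, and 26.4% and 50.2% for Sox2. Sox2 had the lowest share at 48 h in both sets. The second-set share of Sox2 became 38.8% with Control replicate 5 left out, and over all arrays without it the share was 31.7%. Nanog had a lower share than Utf1 and Pim2 in both sets, and its SE over all arrays includes the difference between the sets. In depth the order ran from Sox2 (1.93% of the Control ratio left in Puromycin) through Pim2 (3.85%) and Utf1 (7.08%) to Nanog (45.1%). Without Control replicate 5 the Puromycin difference of Sox2 was -5.08 and that of Pim2 -4.69, a gap smaller than the Control SD of 0.43 for Sox2. Intensities were not used here, so how near the low ratios lie to background was not tested.

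**Figure D2:**
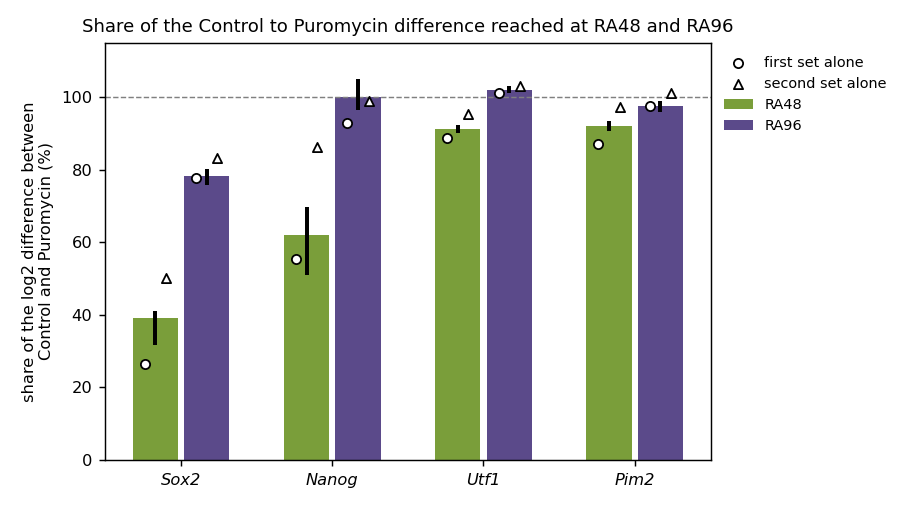
Bars give the share, in percent, of each gene's log2 difference between Puromycin and Control that was reached at RA48 (green) and RA96 (purple), black lines the range when each array is left out in turn, and open circles and triangles the first and second array set alone. Pim2 and Utf1 are above 90% at RA48 while Sox2 is at 39.1%.

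All 4 genes lay below Control without overlap at RA48, where 11.3% of gene rows did so. The same held for RA96 and for Puromycin against Control, where 16.3% and 17.1% of gene rows did so. Between RA96 and RA48 the arrays of 2 of the 4 genes, Sox2 and Utf1, were lower without overlap (7.55% of gene rows), and between Puromycin and RA96 those of 0 of 4 (2.58%). The genes were chosen for these differences, and the comparisons with Control share its 6 arrays, so nothing further is read from the counts. In spread within groups Sox2 stood high, with a pooled SD of 0.90, which exceeded that of 98.5% of genes. Without Control replicate 5 its pooled SD was 0.47, which exceeded that of 89.9% of genes. Nanog, with 0.29, exceeded 67.2%, and Pim2 (0.22) and Utf1 (0.21) lay near the median gene (0.23).

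The genes whose profile over the 23 arrays was most like each member were found from the root mean square difference after each row was centred on its mean. Utf1 and Pim2 were near each other, at 0.42, whereas Sox2 differed from its nearest fellow member, Pim2, by 1.32 and Nanog from its nearest, Utf1, by 1.21. The median gene lay at 2.35 from Sox2, 0.62 from Nanog, 1.67 from Utf1 and 2.01 from Pim2. Pim2 was thus nearer to Sox2 than the median gene, and Utf1 farther from Nanog than the median gene. Utf1 was closest to Gpr37, an orphan receptor gene, at 0.26, followed by Magel2, an imprinted gene (0.40), Pim2, Otx2, a homeodomain factor of the epiblast and forebrain (0.47), and Snhg14, an imprinted noncoding RNA gene (0.49). Pim2 had Utf1, Gpr37 (0.52), Dnmt3b, a de novo DNA methyltransferase (0.56), Magel2 (0.61) and Otx2 (0.80) as its nearest genes. Gpr37 had mean log2 ratios of 3.26 ± 0.23 (SD) in Control, then 0.00 ± 0.14 in RA48, -0.26 ± 0.20 in RA96 and -0.34 ± 0.22 in Puromycin, the same early step and late plateau as Utf1. The genes nearest to Nanog were Rpp25l (0.14), Ccne1, the cyclin E gene (0.15), Glmn (0.17), Wdr36 (0.18) and Slc35f2 (0.18). These profiles had a small range, and the median gene lay at 0.62. Each of these genes also divided by array set as Nanog did, with first-set arrays higher in Control, RA48 and RA96. Ccne1, for example, had 1.14 to 1.52 in first-set and 0.58 to 0.87 in second-set Control arrays. The sets overlapped in Puromycin for Glmn and Slc35f2 and not for Rpp25l, Ccne1 and Wdr36. How far the sets account for these distances was not tested. The genes nearest to Sox2 were Prex2 (1.02), Dnmt3b (1.07), Trh (1.08), Gsta4, a glutathione transferase gene (1.12), and Glrx, a glutaredoxin gene (1.28). The same 5 genes were nearest to Sox2 over 22 arrays without Control replicate 5, with Gsta4 the nearest (0.72) and Prex2 at 0.90. Dnmt3b and Sox2 differed in speed, as the mean of Dnmt3b was 1.93 ± 0.11 (n = 5) in RA48 and 5.24 ± 0.39 (n = 6) in Control.

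**Figure D3:**
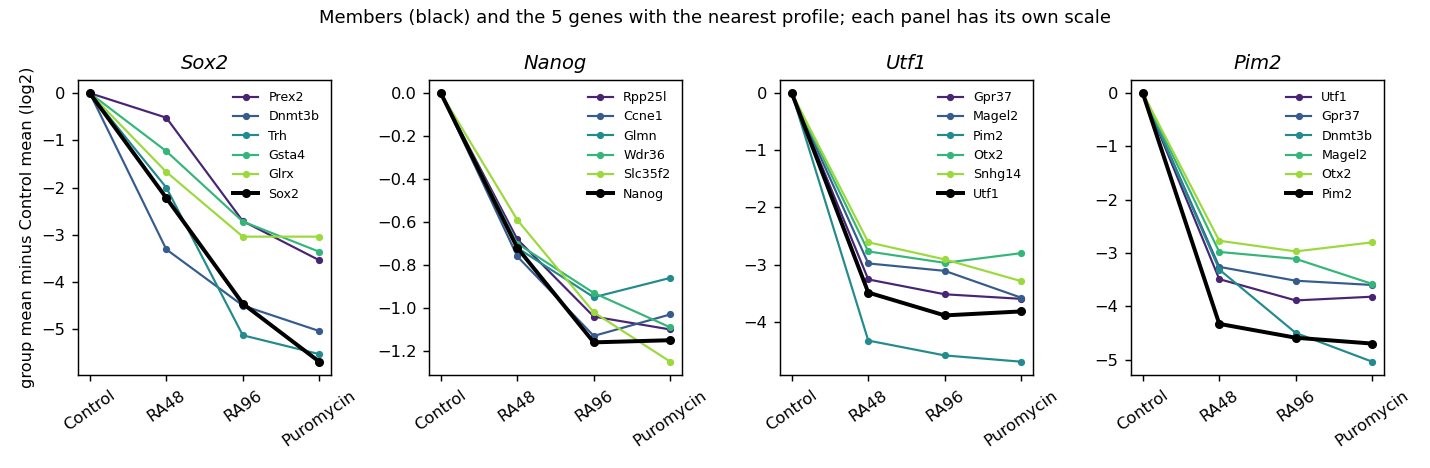
Group means minus the Control mean, in log2 units, are drawn over the 4 groups for each member (black) and the 5 genes nearest to it in profile (colours), 1 scale per panel. Utf1 and Pim2 show a step at RA48 and a plateau, Sox2 descends through all groups to -5.70, and Nanog reaches -1.15.

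Other transcription factors of the pluripotency circuit did not move as a group. At RA48 against Control, 4 of 19 measured factors rose and 6 fell, where 18% of gene rows rose and 16.4% fell (limma, adjusted p under 0.05). The median over these factors was -0.08 (-0.25 within the first set, -0.07 within the second), and that over all genes -0.02. The fallers were led by Otx2 (-2.77 ± 0.08, SE, adjusted p = 2.36e-16), Zscan10, a zinc-finger factor of embryonic stem cells (-1.19 ± 0.23, adjusted p = 0.000386), and Rest, a repressor of neuronal genes (-1.01 ± 0.07, adjusted p = 4.91e-10). The risers included the Krueppel-like factors Klf4 (0.79 ± 0.21), Klf5 (0.77 ± 0.13) and Klf2 (0.62 ± 0.20), all 3 known for roles in both naive pluripotency and vascular or epithelial cells. At Puromycin against Control 4 rose and 7 fell, where 24.6% of gene rows rose and 28.6% fell. Klf4 (2.87 ± 0.20), Klf2 (2.06 ± 0.19) and Klf5 (1.36 ± 0.12) rose most there, and Otx2 (-2.80 ± 0.08), Sall4, a zinc-finger partner of Oct4 (-1.96 ± 0.12), and Zscan10 (-1.68 ± 0.22) fell most. Zfp42 and Esrrb, naive-state factors named after their values were seen, had changes of -0.09 ± 0.23 (adjusted p = 0.79) and 0.02 ± 0.13 (adjusted p = 0.936) in that comparison. Within the first and second set the change was -0.50 and 0.33 for Zfp42, opposite in sign, and -0.07 and 0.10 for Esrrb.

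The factors also differed in when they changed. Otx2 had a Control mean of 2.88 ± 0.13 (n = 6), an RA48 mean of 0.11 ± 0.10 (n = 5) and stayed near it, so its timing was that of Utf1. Sall4 changed by -0.51 ± 0.12 at RA48 against Control, by -1.01 ± 0.12 at RA96 against RA48 and by -0.44 ± 0.12 at Puromycin against RA96, a stepwise course like that of Sox2. Between RA96 and RA48, 4 factors rose and 3 fell (10.8% and 11.6% of gene rows), with Sall4, Pou3f1, a POU factor of the epiblast and nervous system (-0.92 ± 0.23), and Tcf7l1, a repressor in Wnt signalling (-0.44 ± 0.15), falling. The count of 7 became 4 without RA48 replicate 1, 2 or 3 and 4 within the second set. Of all 17863 rows, 26% were called in RA48 against Control, 19.8% in RA96 against RA48 and 5.27% in Puromycin against RA96. The 3540 rows called in RA96 against RA48 became 2239, 2305 and 2227 without RA48 replicate 1, 2 or 3. Between Puromycin and RA96, 2 rose (Klf4 by 1.15 ± 0.20 and Klf2 by 1.02 ± 0.19) and 2 fell (Zfp57, a factor of imprinted loci, -0.54 ± 0.12, and Sall4), where 4.7% and 3.12% of gene rows did.

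**Figure D4:**
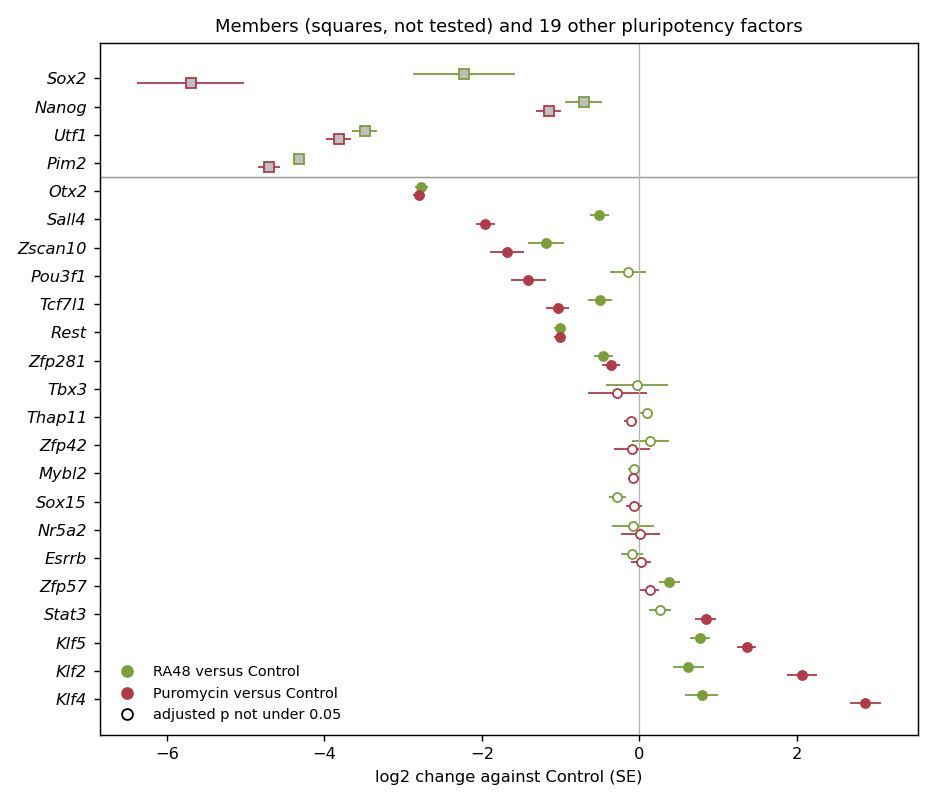
The log2 change against Control (horizontal axis, with SE) is shown for RA48 (green) and Puromycin (red), with the 4 members as grey squares above the line and 19 other pluripotency factors as circles below it, filled where the adjusted p is under 0.05. Otx2, Sall4 and Zscan10 lie to the left, Klf4, Klf2 and Klf5 to the right, and 7 factors (Tbx3, Thap11, Zfp42, Mybl2, Nr5a2, Esrrb and Sox15) are open in both comparisons.

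Among genes known as targets of Oct4 with Sox2, most were lower. At RA48 against Control 7 of 9 measured fell and 1 rose, where 16.4% of gene rows fell and 18% rose. The median was -1.01 (-0.98 and -1.05 in the first and second set). Of those not yet described, Fgf4, a growth factor whose enhancer carries the paired element in mouse, fell by 2.10 ± 0.15 (adjusted p = 3.28e-10), and Jarid2, a partner of the Polycomb complex that methylates histones, fell by 1.16 ± 0.11. The riser was Lefty1, an inhibitor of Nodal signalling (2.03 ± 0.19), which then changed by -3.65 ± 0.19 at RA96 against RA48. At Puromycin against Control 8 of 9 fell and 0 rose, where 28.6% of gene rows fell and 24.6% rose. The median was -1.96, and Otx2, Jarid2 (-2.49 ± 0.10) and Fgf4 (-2.34 ± 0.14) fell most. The exception was Fbxo15, an F-box gene of embryonic stem cells, with -0.21 ± 0.11 (adjusted p = 0.108), named after its values were seen. This list shares Otx2, Sall4, Zscan10, Tcf7l1 and Rest with the factors above.

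Other genes expressed in pluripotent cells fell more often than they rose. At RA48 against Control 4 of 11 measured fell and 2 rose, where 16.4% of gene rows fell and 18% rose. Epcam, an adhesion gene (-2.0 ± 0.26), Rex2 (-1.13 ± 0.28) and Tex10 (-0.93 ± 0.16) fell most, and Cd9, a tetraspanin gene (0.87 ± 0.12), and Pecam1, an adhesion gene that endothelium shares (0.52 ± 0.18), rose. At Puromycin against Control 5 fell and 1 rose, where 28.6% of gene rows fell and 24.6% rose. Fut9, which makes the SSEA-1 sugar of undifferentiated mouse cells, fell by 2.05 ± 0.17 there, while its RA48 change was -0.38 ± 0.17 (adjusted p = 0.118).

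Of 31 measured chromatin and DNA methylation factors, 12 fell, 1 (Tet2, 0.40 ± 0.14) rose and 18 were not called at RA48 against Control, where 16.4% of gene rows fell, and the median was -0.28 (-0.32 and -0.30 within the sets). Dnmt3b fell by 3.31 ± 0.14, Phc1, a Polycomb gene, by 1.79 ± 0.13 and Hells, a chromatin remodeller, by 1.37 ± 0.12. At Puromycin against Control 20 of 31 fell, 0 rose and 11 were not called, where 28.6% of gene rows fell, with a median of -0.47 and -0.06 over all genes. Dnmt3b (-5.04 ± 0.14), Jarid2 and Phc1 (-2.27 ± 0.12) led them. Between RA96 and RA48, 7 fell, Dnmt3b, Jarid2 and Phc1 among them again, and 1 (Rnf2, 0.26 ± 0.09) rose. There 11.6% of gene rows fell and 10.8% rose.

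Signalling genes of pluripotent cells rose more often than they fell against Control. At RA48 10 of 21 rose, 3 fell and 8 were not called, where 18% of gene rows rose and 16.4% fell. The median was 0.47 (0.32 and 0.46 within the sets). The risers were led by Lefty1, Id2, an inhibitor of helix-loop-helix factors (1.83 ± 0.22), and Fgfr2, an Fgf receptor gene (1.49 ± 0.14). The fallers were Fgf4, Spry4, a feedback inhibitor of Fgf signalling (-1.02 ± 0.17), and Lifr, the receptor of the cytokine LIF that sustains mouse stem cells (-0.94 ± 0.09). At Puromycin against Control 10 rose and 7 fell, where 24.6% of gene rows rose and 28.6% fell. Jak1, a kinase below that receptor (2.18 ± 0.12), was among the risers.

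Around Pim2, the Pim, Myc and Pim substrate list had 2 risers and 5 fallers of 19 at RA48 against Control. Of all gene rows 18% rose and 16.4% fell in that comparison. The list holds Gpr37 by an error of compilation, and Gpr37 was the largest faller (-3.26 ± 0.13), so 4 of the 18 others fell. Mycn, a Myc family gene of early embryonic cells, fell by 0.95 ± 0.15 and Eif4ebp1, a translation repressor that Pim kinases act on, by 0.91 ± 0.15. Pim3, a further family member named after its values were seen, fell by 0.56 ± 0.17 (adjusted p = 0.0146). Cdkn1a, the gene of the cell cycle inhibitor p21, rose by 1.35 ± 0.16 at RA48 and by 3.16 ± 0.15 at Puromycin, each against Control. At Puromycin Mycn stood at -1.64 ± 0.14 and Myc at 0.77 ± 0.15 relative to Control, both called. In all, 6 rose and 6 fell there, where 24.6% of gene rows rose and 28.6% fell. Gpr37, in the list by error, was again among these fallers (-3.60 ± 0.12).

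Other members of the Sox family did not fall as far as Sox2. The means of Sox8 and Sox18 were also lower at each step, but by less. Sox8 had 0.22 in Control, 0.08 in RA48, -0.10 in RA96 and -0.31 in Puromycin, and Sox18 had -1.04, -1.40, -1.55 and -1.58. At RA48 against Control 3 of 8 measured rose and 0 fell, where 18% of gene rows rose and 16.4% fell. The risers were Sox13 (0.83 ± 0.17), Sox4 (0.61 ± 0.12) and Sox17, an endoderm and endothelial factor (0.44 ± 0.15). At Puromycin against Control Sox17 (1.24 ± 0.14), Sox11 (0.68 ± 0.13) and Sox4 (0.38 ± 0.12) rose, and Sox13 (-1.33 ± 0.16), Sox8 (-0.53 ± 0.10) and Sox18 (-0.53 ± 0.19) fell. In that comparison 24.6% of gene rows rose and 28.6% fell. Sox1 and Sox3, the closest relatives of Sox2, were not analysed here.

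Because Sox2 also marks neural progenitors, markers of other cell types were set beside these genes. Of 11 neural markers 1 rose and 2 fell at RA48 against Control, and 2 rose and 3 fell at Puromycin against Control. Of all gene rows, 18% rose and 16.4% fell at RA48, and 24.6% rose and 28.6% fell at Puromycin. The neural counts lay near these shares, which also stand beside the counts of the lists below. Gap43, a growth cone protein gene, rose by 2.58 ± 0.21 and 2.15 ± 0.20 in these comparisons, and Hes5, a Notch target of neural progenitors, fell by 0.72 ± 0.14 at Puromycin. The mean log2 ratio over the neural list ran between -0.93 and -0.36 in Control, -0.67 and -0.45 in RA48, -0.66 and -0.22 in RA96, and -0.87 and -0.26 in Puromycin, so the groups overlapped. Smooth muscle markers were mostly higher than in Control in the groups where the 4 genes were lower. Of 14 measured, 10 rose and 0 fell at RA48, led by Acta2 (4.56 ± 0.22), Csrp1 (2.42 ± 0.30) and Myl9 (2.33 ± 0.23), and 12 rose and 0 fell at Puromycin, each against Control. Between Puromycin and RA96 1 of the 14 rose and 0 fell, where 4.7% of gene rows rose and 3.12% fell. The smooth muscle mean ran between -2.55 and -1.31 in Control, -0.79 and -0.14 in RA48, -0.22 and 0.68 in RA96, and -0.26 and 0.81 in Puromycin. Of 14 primitive and visceral endoderm markers 10 rose and 0 fell at RA48 and again at Puromycin, each against Control. Among the risers were Gata6 (2.04 ± 0.18 at RA48) and Col4a2 (3.34 ± 0.15 at Puromycin). The endoderm mean ran between -1.58 and -0.94 in Control, -0.39 and -0.34 in RA48, -0.26 and 0.03 in RA96, and -0.19 and 0.12 in Puromycin. Of 11 mesoderm markers 3 rose and 1 fell at RA48 and 4 rose and 3 fell at Puromycin. The mesoderm mean ran between -1.02 and -0.56 in Control and between -0.78 and -0.43 in Puromycin. The part of these cell types in the loss of Sox2, Nanog, Utf1 and Pim2 was not tested.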

How the data were processed

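RNA of A404 cells (Cy5) and a pool of whole mouse embryos (Cy3) was hybridised to Agilent oligonucleotide arrays. Per the labels, an Agilent G2565AA instrument scanned them and Feature Extraction A.6.1.1 quantified the spots. The deposited table holds 1 value per probe and array, read as a log10 ratio of Cy5 over Cy3. The base, any centring and the direction are not stated. The base was taken from the range of the values, and the direction from the dyes in the labels. Values were divided by log10 of 2 (0.301). Of 21446 rows, 1166 (5.44%) without a gene and with at most 6 significant digits were left out as probable control spots. Probes with 1 symbol in GEO's platform annotation (11100, against 442 with several and 8738 with none) were averaged per gene, giving 17863 rows, 8683 of them genes. Arrays were not normalized further.

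One mean per group was fitted to the 23 arrays with limma 3.58.1 (R 4.3.3) and adjusted by Benjamini-Hochberg over all rows, two-sided, and an adjusted p under 0.05 is called. The fit was tested on simulated data. SE beside Sox2, Nanog, Utf1 and Pim2 come from the SDs of the groups compared, and SE beside other genes from limma. The members and gene lists were chosen with earlier results of these data known. Genes are named as the 4 members, Acta2, up to 3 called genes each way with the largest change per list and comparison, and the 5 genes with the smallest root mean square difference from each member. The 2 array sets come from a principal component analysis of the 23 arrays after each group's mean was removed. Arrays with the same replicate number deviated together in RA48 versus Control (r of 0.37 to 0.52, 5 pairs) and Puromycin versus Control (0.30 to 0.49, 6 pairs), but each of these pairs also lies within 1 array set. In comparisons with RA96 the pair of replicate 2, whose arrays lie in different sets, was below 0. Its r was -0.11 with Control, -0.46 with RA48 and -0.38 with Puromycin, and the pairs within 1 set were above 0. Other settings were median-centred and quantile-normalized arrays, the replicate number or the set as a block, each set alone, only the groups compared, group medians and each array left out. The number of arrays limits the precision. Prep and figures used Python 3.11.15, pandas 2.3.3 and matplotlib 3.10.9.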

Additional observations from a re-analysis of the deposited data

Results flagged for a closer look

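Sox2 on Control replicate 5 had a log2 ratio of 8.18, and the next highest Control array had 5.22. The gap was 0.729 of the whole Control range, beyond Dixon's 95% limit for 6 arrays. None of the other 15 gene and group pairs of the 4 members passed that limit. Chance passes it in about 1 of 20 groups, and over all genes 5.52% did in Control.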

How the results depend on the processing

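Centring arrays on their medians moved none of the 38 results by over the spread between arrays (counts, by over 1.5 times). For changes of the members this limit was the pooled SD, 0.29 for Nanog, 0.21 for Utf1 and 0.22 for Pim2. For Sox2 it was 0.90, or 0.47 without Control replicate 5, so smaller moves of Sox2 are not listed below. Its RA48 change against Control was -2.23 over all arrays, -1.42 and -3.03 within the first and second set, and -1.61 without that array. Fitting only the groups compared moved none of the 5 counts of called rows by over 1.5 times. With quantile normalization the Utf1 change became -3.24 in RA48, -3.61 in RA96 and -3.52 in Puromycin, and the Pim2 change -3.99, -4.21 and -4.28, each against Control. Within the first array set Utf1 gave -3.74, -4.24 and -4.22 and Pim2 -4.95 in RA96 and -5.07 in Puromycin against Control, with -0.53 for Pim2 in RA96 against RA48. Within the second set Utf1 gave -3.27, -3.54 and -3.43 against Control, Pim2 -4.33 in Puromycin against Control, and Nanog -0.12 in RA96 against RA48, where group medians gave -0.74. In these settings each of these changes kept its direction. With the set as a block 7029 rows were called between RA48 and Control (4642 without it). Between RA96 and RA48 this block gave 5726 rows (3540 without it), and between Puromycin and RA96 it gave 2281 (942 without it). RA96 versus RA48 gave 6697 rows within the first and 2267 within the second set, and Puromycin versus RA96 1691 and 1638. Of the pluripotency factors, 5 were called in RA48 versus Control and 4 in RA96 versus RA48 within the second set. With the replicate block 1784 rows were called in Puromycin versus RA96, and no other count moved by over 1.5 times. Leaving out 1 array at a time gave 2227 to 4198 rows and 4 to 7 factors in RA96 versus RA48. The cause of these differences was not tested. Members had 1 probe each, so no value per probe could be set beside another. The settings without Control replicate 5 for the second set, the ranks and the pooled SD were chosen after seeing the data.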
